A study of Canis lupus familiaris with 42 samples.

Results

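Spontaneous sarcomas of dogs were split by their level of TOP2A before treatment, and the 10 tumours with the most TOP2A were compared with the 10 that had the least. TOP2A encodes topoisomerase II alpha, the enzyme that untangles DNA during replication and chromosome segregation. It is made mainly by cells that are preparing to divide. The 21 arrays taken before treatment were ranked by the TOP2A probe set with the highest mean over all 42 arrays of the series. Ranks 1 to 10 form the high group, ranks 12 to 21 the low group, and the tumour at rank 11 was left out, so 20 of the 21 arrays before treatment entered the comparison. The labels give every sample as sarcoma tissue of a dog, with the treatment given as none for the first array of a tumour and as hyperthermia, meaning heating of the tumour, for the second. The series design places the second array after the first heating session, given as an adjuvant to radiotherapy. The subtype of each sarcoma and the hours between the samples are not given in the sources used here. Nor is it stated that no dog gave more than 1 tumour, and a p-value here therefore covers only the variation among these samples. Tumour numbers below are names only.

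The deposited values are log2 levels from Affymetrix canine arrays, and a difference of 1 stands for 2-fold. TOP2A before treatment ran from 6.65 through a median of 6.94 to 8.89 in the high group, and from 4.66 through 5.84 to 6.41 in the low group. The tumours were chosen by these measured levels, which are therefore no result. The border was narrow, since tumour 9 at rank 10 stood at 6.65, the tumour left out at 6.45 and tumour 8 at rank 12 at 6.41. Ranking by the other TOP2A probe set kept 7 of the 10 high tumours and 8 of the 10 low tumours in their group. In bulk tissue, fewer cells of a type and less RNA per cell cannot be told apart, so a high TOP2A level may stand for more dividing cells or for more TOP2A in each.

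**Figure D1:**
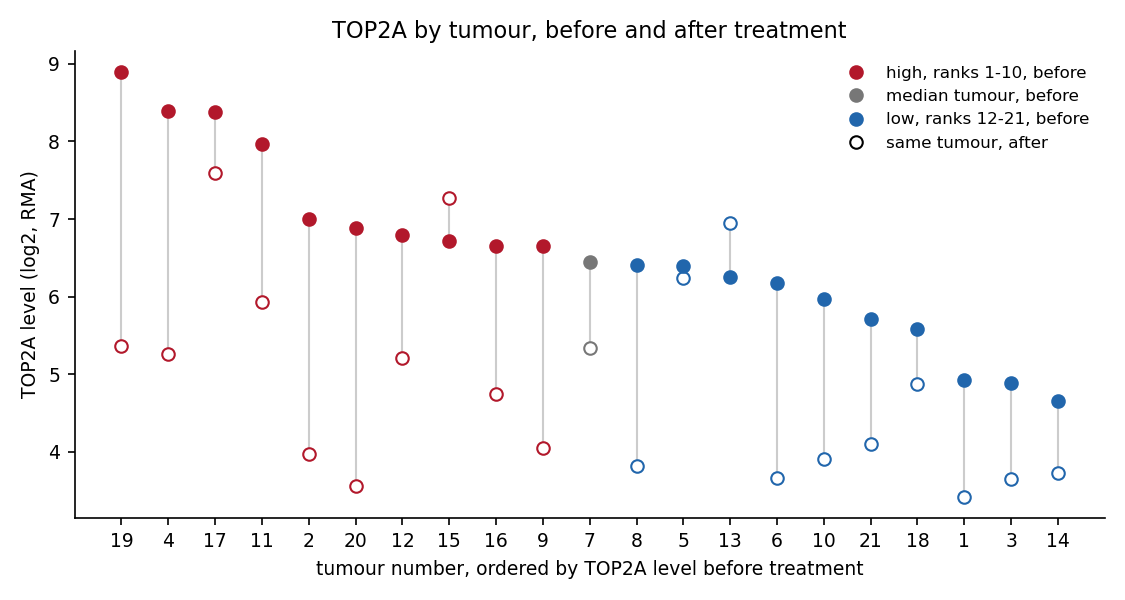
TOP2A level on the log2 scale (vertical axis) for each of the 21 tumours, ordered by the level before treatment (horizontal axis), with filled points before treatment, open points after it and a line joining the arrays of 1 tumour. The 10 red tumours form the high group, the 10 blue the low group and the grey tumour was left out, and only tumours 15 and 13 stood higher after treatment than before.

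A cell that divides passes through a fixed order of programmes. G1 cyclins and their kinases release E2F transcription factors, E2F targets such as ribonucleotide reductase and the MCM helicase copy the DNA, and cyclin B with CDK1 then starts mitosis, where kinesins, kinetochore proteins and condensins share out the chromosomes. Fibroblasts at rest instead express complement, matrix and carrier proteins, and sarcomas are tumours of that mesenchymal lineage.

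The mesenchymal markers VIM, COL1A1, COL1A2, COL3A1 and SPARC lay above the array median in all 21 arrays before treatment. So did PTPRC, a marker of leukocytes, at 5.59 to 7.55, so a level above the median does not single out mesenchymal tissue. Tumour 15, a member of the high group, stood apart by several epithelial markers, though TP63 of the keratinocyte list was at most 4.22 in every array before treatment. The mean of 17 keratinocyte genes was 7.82 in tumour 15, against at most 4.85 in the other high tumours and between 4.03 and 4.92 in the low ones, and its DSG1 level was 8.45 with no other ranked tumour above 4.54. This array also had the highest mean of the endothelial, smooth muscle, T and NK cell, B cell, macrophage and neutrophil lists within the high group, and tumour 13 had the highest endothelial, smooth muscle, T and NK cell, B cell and neutrophil means within the low group. The contrast between 3′ and 5′ probe sets of the actin and GAPDH controls, a sign of RNA quality, was 1.16 ± 0.42 (SD, n = 10) in the high and 1.31 ± 0.45 (SD, n = 10) in the low group (permutation p = 0.449, two-sided). It lay above 2 in tumour 17 of the high and tumour 13 of the low group. The poly-A control probe sets were bright in 5 high and 4 low tumours and dim in the rest, which was read as 2 labelling batches, spiked and unspiked, that the labels do not give.

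The high group had more RNA of the mitotic and DNA replication machinery and less of several genes of resting fibroblasts, matrix and macrophages, but no single gene passed the test across the array. With limma, 0 of 42922 probe sets differed at an adjusted p under 0.05, counted without the 2 of TOP2A. At an unadjusted p under 0.05 there were 1434 probe sets, of which 685 were higher and 749 lower in the high group. A rank-sum test gave 0 at an adjusted and 1318 at an unadjusted p under 0.05. With 1 probe set for each of 15114 genes, 283 genes (1.87%) were higher and 282 (1.87%) lower at an unadjusted p under 0.05, and the median difference over all genes was -0.0071, with 47.7% of genes above 0 and 52.3% below. The shares of all genes are the background for the counts below, in which "at p under 0.05" means the unadjusted limma p. Among the 100 genes with the smallest p, 84 were higher in the high group and 46 belonged to the lists of mitosis, DNA replication, cell cycle regulation, repair and chromatin. Of the 15114 genes, mitosis held 61, DNA replication 47, repair 33, chromatin 25, cell cycle transcription factors 18 and G1 regulators 15.

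**Figure D2:**
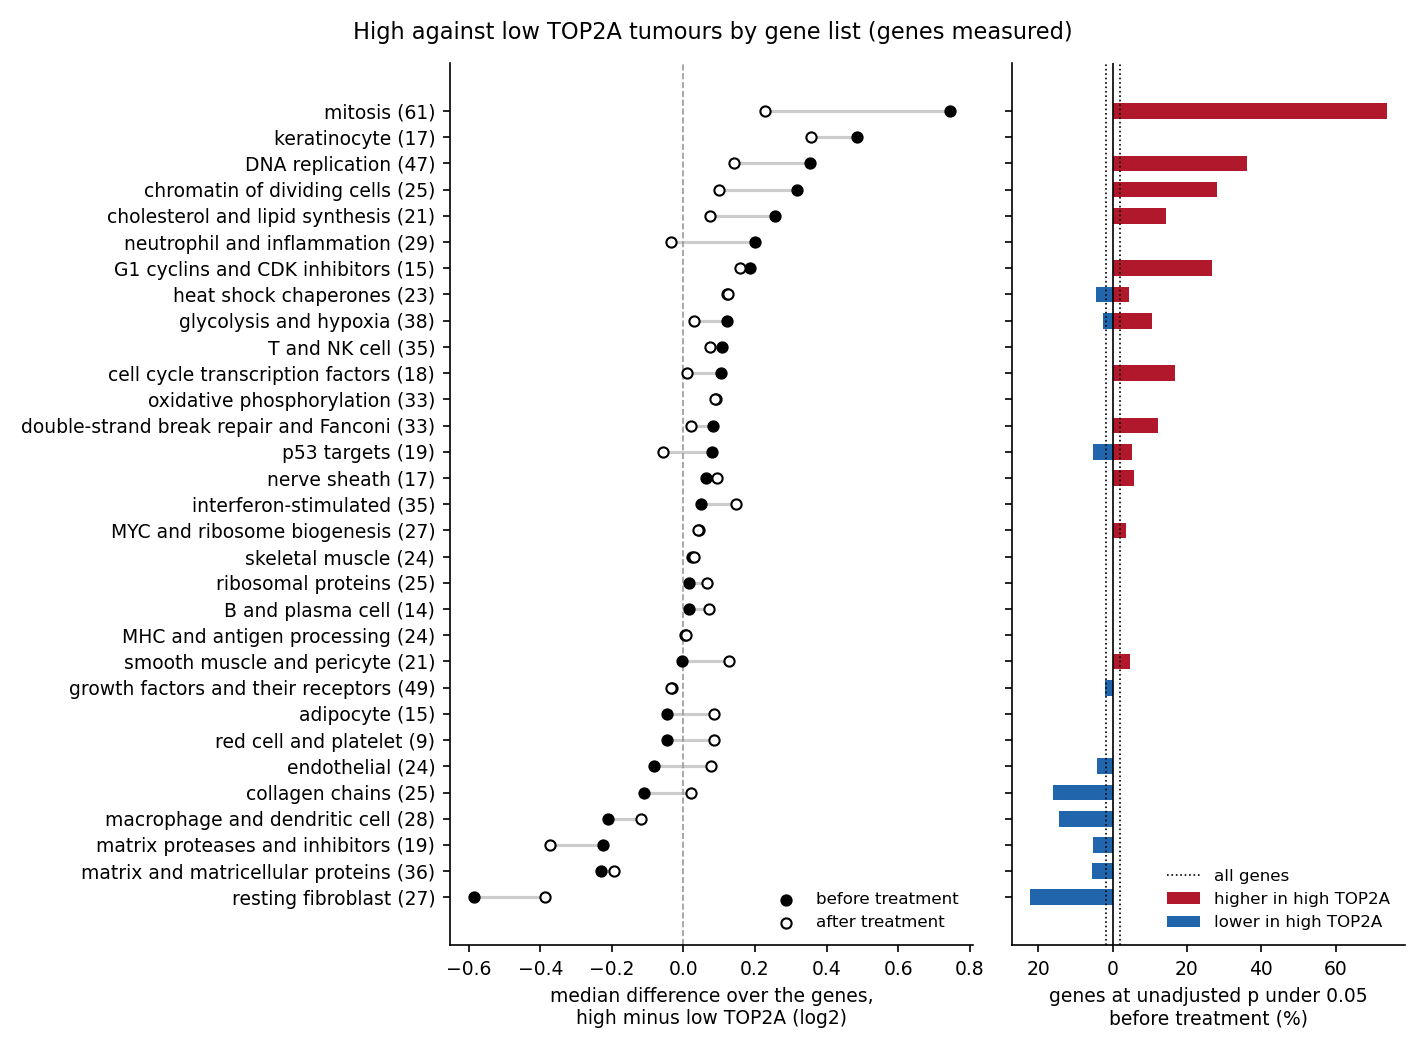
Left, the median difference between high and low TOP2A tumours over the measured genes of each of 31 lists (horizontal axis, log2), with filled points before and open points after treatment. Right, the share of each list at an unadjusted limma p under 0.05 before treatment (horizontal axis, percent), red for higher and blue for lower in the high group, with dotted lines at the shares over all genes; mitosis stands at 45 of 61 genes on one side and resting fibroblast at 6 of 27 on the other.

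Of the mitosis list, 61 of 68 genes were measured and 59 had a positive difference, with a median of 0.74 against -0.0071 for all genes. At p under 0.05, 45 of the 61 were higher and 0 lower, beside the 1.87% of all genes on each side. In 29 of the 61 genes all 10 high tumours stood above the median of the low group, a pattern found in 0.648% of all genes. The list shares its cell cycle role with TOP2A, so it is not evidence that is independent of how the tumours were ranked. The count was 47 without tumour 15 and 42 without tumour 17.

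CDK1, the kinase that drives entry into mitosis, ran from 5.76 through a median of 6.82 to 8.01 in the high group and from 4.38 through 5.35 to 6.12 in the low group. Of the 10 high tumours, 7 stood above the highest low tumour and all stood above the low median. The difference of 1.54 ± 0.32 (SE), or 2.90-fold, had a limma p of 9.78e-05 and an adjusted p of 0.344. Its other 2 probe sets gave 1.56 and 1.80.

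NCAPG, a condensin subunit that compacts chromosomes, ran from 6.0 through 6.95 to 8.73 in the high and from 5.01 through 5.67 to 6.16 in the low group. Here 9 of 10 high tumours exceeded every low tumour, and the difference was 1.53 ± 0.28 (limma adjusted p = 0.178). Its other 4 probe sets, all dimmer, ranged from 0.049 to 1.37. NUF2, part of the kinetochore complex that holds microtubules, had the largest difference of the list at 1.67 ± 0.34 (limma adjusted p = 0.291). It spanned 5.59 to 8.28 with a median of 6.65 in the high group and 4.07 to 5.88 with a median of 5.02 in the low group, so that the ranges met only at their edges. ASPM, a spindle pole protein, was higher by 1.58 ± 0.35, with 6 of 10 high tumours beyond the low maximum of 5.36.

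The mitotic motor KIF11 differed by 1.48 ± 0.34, from a high median of 6.03 to a low median of 4.34. Among the mitotic kinases, the high and low medians of PLK1 were 5.77 and 5.05 and those of AURKA 6.38 and 5.84. Both gaps were smaller than that of CDK1, at 0.71 ± 0.16 and 0.64 ± 0.15, yet 8 of 10 high tumours exceeded every low tumour for each kinase. ASPM, KIF11, PLK1 and AURKA each had a limma adjusted p of 0.363. CCNB2, a cyclin B that activates CDK1, was higher by 1.15 ± 0.35 with 5 high tumours beyond the low range (limma p = 0.00372). AURKB, the kinase of the chromosomal passenger complex, overlapped more, with medians of 8.62 and 8.17 and a difference of 0.41 ± 0.21 (limma p = 0.0690).

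**Figure D3:**
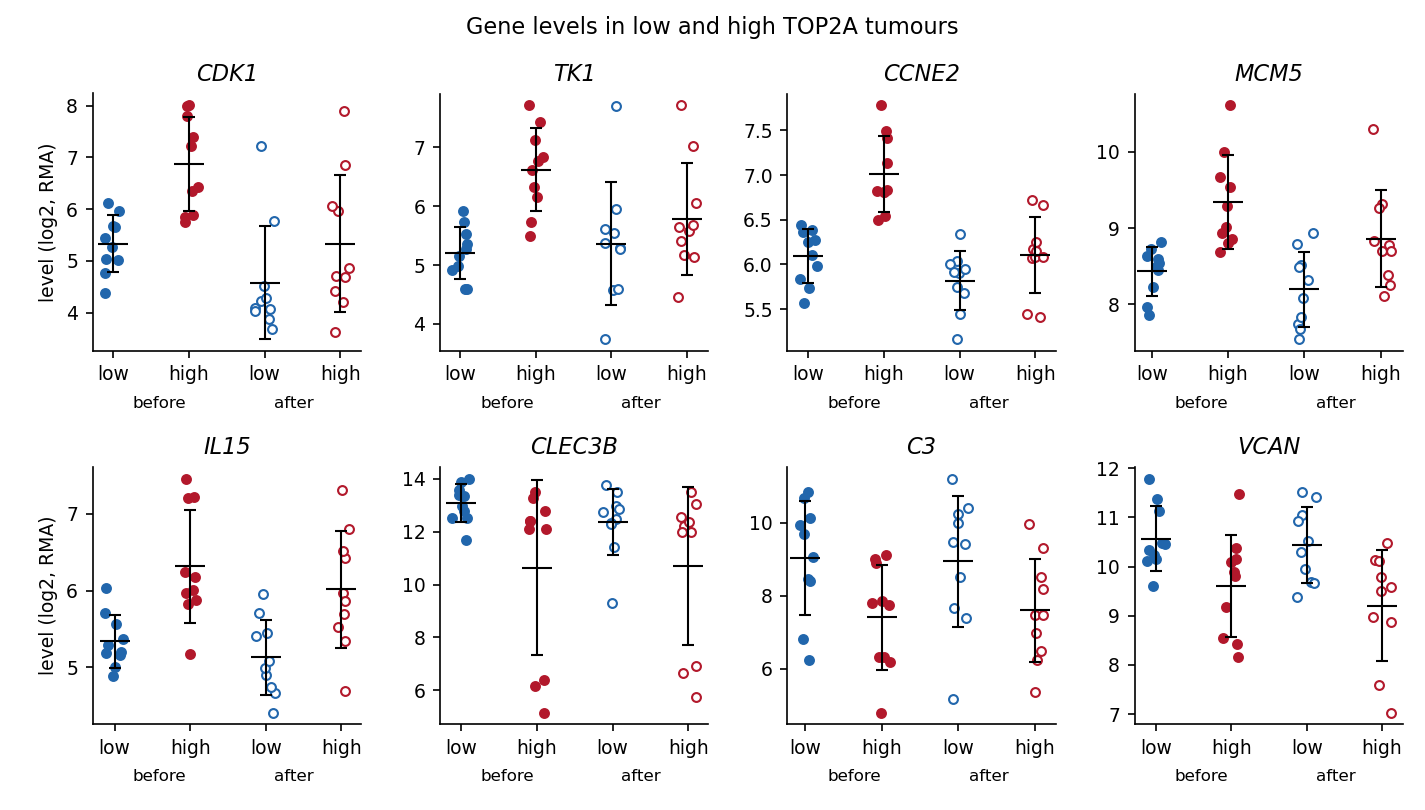
Levels on the log2 scale (vertical axes) of CDK1, TK1, CCNE2, MCM5, IL15, CLEC3B, C3 and VCAN in the 10 low (blue) and 10 high (red) TOP2A tumours, with filled points before and open points after treatment, and black bars for the mean ± SD. CCNE2 before treatment shows no overlap between the groups, and 3 high tumours lie far below the rest for CLEC3B.

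DNA replication genes were higher in the same direction with smaller differences. Of 47 measured genes out of 50, 17 were higher and 0 lower at p under 0.05, and the median difference was 0.35. TK1, the salvage enzyme that supplies thymidine nucleotides, ran from 5.49 through 6.69 to 7.71 in the high group and from 4.59 through 5.22 to 5.92 in the low group. Its difference of 1.41 ± 0.25, or 2.66-fold, had a limma adjusted p of 0.172, and 8 high tumours exceeded every low one. RRM2, the regulated subunit of ribonucleotide reductase, ran from 7.58 through 8.45 to 10.3 against 6.0 through 7.18 to 7.84. That is a difference of 1.40 ± 0.30 (limma adjusted p = 0.344), and 9 high tumours exceeded every low one.

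The MCM helicase subunits differed less. MCM5 ran from 8.69 through 9.15 to 10.6 in the high and from 7.86 through 8.52 to 8.82 in the low group. The difference was 0.91 ± 0.21 (limma adjusted p = 0.363), with 8 high tumours above the low range, and MCM2 followed at 0.66 ± 0.31 (limma p = 0.0435). PCNA, the sliding clamp of the DNA polymerases, was at 9.75 to 11.7 in the high and 8.88 to 11.1 in the low group and did not reach that limit (0.55 ± 0.28, limma p = 0.0609). The count of 17 replication genes was 28 without tumour 15, 10 without tumour 17 and 11 without tumour 19. In the 9 spiked tumours alone it was 6 and in the 11 unspiked ones 9, and without tumours 13 and 17 it was 10.

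Among G1 cyclins and CDK inhibitors 4 of 15 measured genes were higher at p under 0.05. CCNE2, a cyclin E that starts S phase with CDK2, was the only one of 15114 genes (0.00662%) whose groups did not overlap. It ran from 6.50 through 6.83 to 7.78 in the high group and from 5.57 through 6.18 to 6.44 in the low group, a difference of 0.92 ± 0.16 (limma adjusted p = 0.172). CDKN2C, an inhibitor of CDK4 and CDK6 that is itself an E2F target, was higher by 1.22 ± 0.40 (limma p = 0.00678), with medians of 8.39 and 7.35. CCND1, the growth factor dependent cyclin D, had medians of 9.72 in both groups and a difference of -0.27 ± 0.36 (limma p = 0.453). That sign turned in the spiked tumours alone, at 0.58, and with array weights, at 0.13. CDKN1A, the p53 target that halts the cycle, overlapped over most of its range, with medians of 10.3 and 10.9 (limma p = 0.456).

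Transcription factors of the cycle differed by less. At p under 0.05, 3 of 18 were higher, namely MYBL2 at 0.53 ± 0.18, E2F8 at 0.33 ± 0.12 and E2F1 at 0.27 ± 0.11. FOXM1, the regulator of late cycle genes, was measured at 0.25 ± 0.15 by its brighter probe set (limma p = 0.104) and at 1.06 by its other probe set (limma p = 0.00406), so its result depended on the probe set. RB1, the brake on E2F, was lower by 0.57 ± 0.32 in the high group (limma p = 0.0891), and MYC had medians of 8.69 and 8.83 (limma p = 0.291).

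Chromatin genes of dividing cells had 7 of 25 higher at p under 0.05, with a median of 0.32. Leaving out 1 tumour at a time gave between 5 of them (without tumour 4, 17 or 19) and 12 (without tumour 15), and the spiked tumours alone gave 4. LMNB1, a lamin of the nuclear envelope, was higher by 0.60 ± 0.17, and all 10 high tumours lay above the low median of 4.13. H2AZ1, a histone variant, was higher by 0.88 ± 0.26, with high tumours from 9.63 to 11.6 and low ones from 8.42 to 10.4. EZH2, the methyltransferase of histone H3, was higher by 0.84 ± 0.30, but tumour 17 alone stood at 8.78 where the next high tumour was at 6.87. ASF1B, a histone chaperone, was at 0.51 ± 0.15 and HELLS, a chromatin remodeller, at 0.90 ± 0.33. Of the genes of double-strand break repair, 4 of 33 were higher, among them BRCA1, a repair scaffold, at 0.35 ± 0.14. BARD1, the partner of BRCA1, was at 0.54 ± 0.30 and turned to -0.062 when tumours were ranked by the other TOP2A probe set.

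Some genes outside the lists were also higher by more than 1 in the high group. LOC485338, whose role is not given in the sources used here, had the smallest p of all genes. It ran from 7.0 through 7.67 to 8.40 in the high and from 5.24 through 6.14 to 7.17 in the low group, a difference of 1.55 ± 0.25 (limma adjusted p = 0.172). DEPDC1 and SHCBP1, both known from dividing cells, were higher by 1.23 ± 0.28 and 1.45 ± 0.34, although the other, dimmer probe set of DEPDC1 was at 0.037. PSAT1, an enzyme of serine synthesis, was higher by 1.36 ± 0.43, with 8 high tumours above every low tumour and the remaining 2 below the low median.

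The split at the middle rank sets tumours with nearly equal TOP2A into opposite groups, and a fit of each probe set on the TOP2A level over all 21 tumours keeps that order. This limma fit gave 185 probe sets at an adjusted p under 0.05, of which 179 rose and 6 fell with the TOP2A level. Over genes, 87 (0.576%) rose and 3 (0.0198%) fell. Of these 90 genes, 51 are members of the cell cycle lists, 38 of no list and 1, HSPA4L, a heat shock protein of the HSP110 family, of the chaperone list. The mitosis list had 34 of 61 among them, DNA replication 10 of 47, chromatin 5 of 25 and G1 regulators 2 of 15.

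CDK1 rose by 0.85 ± 0.077 per unit of TOP2A, both on the log2 scale (limma adjusted p = 2.49e-06). NCAPG rose by 0.79 ± 0.079 and KIF11 by 0.84 ± 0.092, while PLK1 and AURKA rose by 0.32 ± 0.068 and 0.30 ± 0.059. MCM5 at 0.53 ± 0.058 had a smaller slope than RRM2 at 0.77 ± 0.085, though both had a limma adjusted p under 0.001. The 3 genes that fell were PPM1A, a serine and threonine phosphatase, by 0.17 ± 0.038, ARRB1, a beta-arrestin that desensitises receptors, by 0.27 ± 0.058, and TMEM176B, a membrane protein of myeloid cells, by 0.73 ± 0.16. Without the 2 tumours farthest from the median TOP2A level, 4 and 19, 128 probe sets passed. Leaving out each tumour in turn gave 134 to 218, and the spiked and unspiked tumours alone gave 45 and 41. Fitted on the same TOP2A level before treatment, the arrays after treatment gave 528 genes (3.49%) with a positive and 413 (2.73%) with a negative slope at an unadjusted limma p under 0.05 and 0 at an adjusted one. Mitosis and DNA replication each had 8 on the positive and 0 on the negative side.

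**Figure D4:**
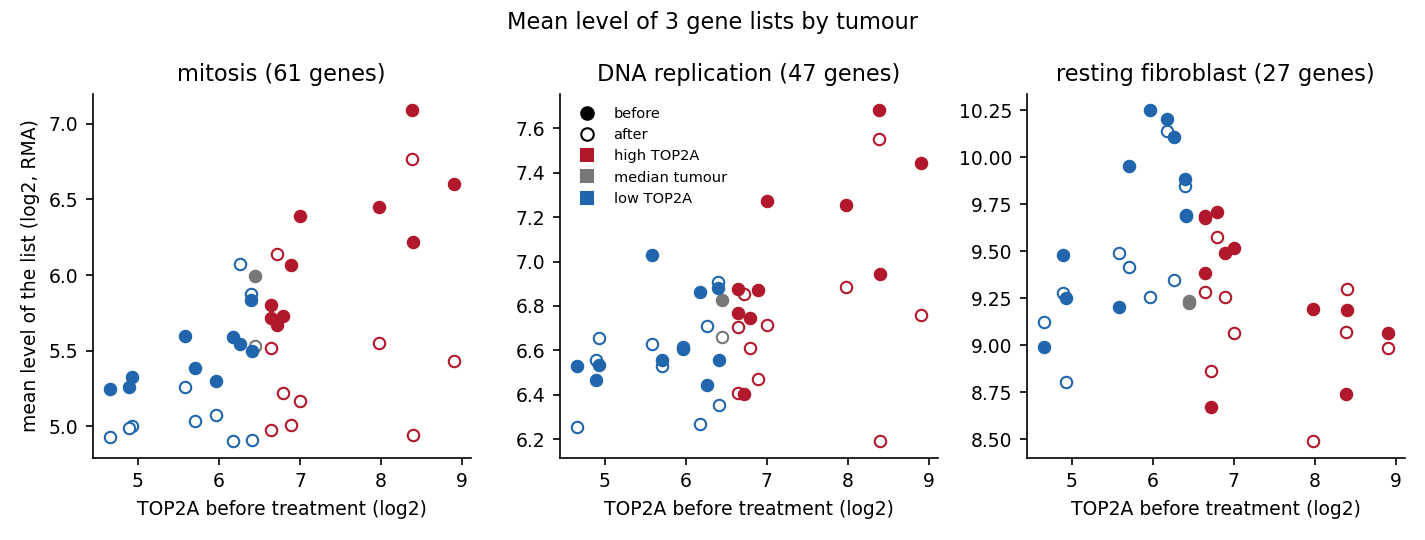
Mean log2 level of the measured genes of 3 lists (vertical axes) against the TOP2A level before treatment (horizontal axes, log2) for each tumour, filled before and open after treatment, red for the high and blue for the low group and grey for the tumour left out. Before treatment the mitosis mean ran from 5.25 in the tumour with the least TOP2A to 7.09 in tumour 17. The resting fibroblast mean exceeded 9.80 in 5 of the low tumours and none of the high ones. It did not follow TOP2A within the low group, since tumours 18, 1, 3 and 14, with the least TOP2A, stood at 9.20, 9.25, 9.48 and 8.99. These lay within the high range of 8.67 to 9.71.

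The mean over the mitosis genes showed how unlike the high tumours were to one another. It was 7.09 in tumour 17 and 6.60 in tumour 19, but 5.67 in tumour 15 and 5.72 in tumour 9, which is below the 5.83 of tumour 5 in the low group. The group means were 6.17 ± 0.47 (SD, n = 10) and 5.46 ± 0.19 (SD, n = 10). For DNA replication, tumour 15 had the lowest mean of the high group at 6.40, and tumour 18 the highest of the low group at 7.03.

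Most genes of the resting fibroblast list ran the other way. Of 29 genes 27 were measured, 19 had a negative difference and the median was -0.59. The other 8 were positive, among them SFRP1 at 1.30 (limma p = 0.0574) and MFAP5 at 0.81. PI16 and DPT, at -0.67 and -0.81, did not reach p under 0.05 (limma p = 0.317 and 0.330). In the fit on the TOP2A level, 0 of the 27 passed an adjusted p under 0.05. At p under 0.05, 6 were lower in the high group and 0 higher. In 12 of the 27 (44.4%) at least 8 high tumours lay below the low median, which was so for 11.3% of all genes. The count of 6 was 3 without tumour 15 and 3 without tumour 17, and 2 in the spiked and 4 in the unspiked tumours alone. The median was -0.32 in the spiked tumours, -0.25 with array weights and -0.20 with tumours ranked by the other TOP2A probe set.

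CLEC3B, a plasminogen-binding protein of connective tissue, had the largest difference of the genes named here at -2.44 ± 1.01, or 5.42-fold (limma p = 0.0250). It ran from 5.15 through 12.3 to 13.5 in the high group and from 11.7 through 13.2 to 14.01 in the low group. The high tumours 4, 15 and 17 stood at 5.15, 6.16 and 6.38 and the other 7 at 12.1 or above, so the high group was split by a wide gap. Without tumour 4 the difference was -1.83. C3, the central complement protein, was spread more evenly, from 4.79 through 7.78 to 9.11 against 6.23 through 9.38 to 10.8. All 10 high tumours lay below the low median of C3, and the difference was -1.62 ± 0.63 (limma p = 0.0184). CCDC80, a matrix-bound protein, was at -1.51 ± 0.59, with tumour 4 at 5.98 and all the other high tumours at 10.1 or above. Without tumour 4 the difference was -0.98.

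Matrix genes were lower by a smaller margin. Of 36 matrix and matricellular proteins, 29 had a negative difference with a median of -0.23, and 2 were lower at p under 0.05. VCAN, a large proteoglycan of the provisional matrix, ran from 8.15 through 9.84 to 11.5 in the high and from 9.61 through 10.4 to 11.8 in the low group. Its difference was -0.96 ± 0.37 (limma p = 0.0162), and 9 high tumours lay below the low median. MFAP4, a microfibril protein, was at -1.63 ± 0.71, and EFEMP1, a fibulin, at -1.30 ± 0.71 (limma p = 0.0830). Of 25 collagen chains, 4 were lower at p under 0.05, among them COL12A1 at -0.99 ± 0.41 and COL14A1 at -0.85 ± 0.41, which decorate fibrils. COL3A1, a fibril chain, was another at -0.34 ± 0.15. Its other probe sets, all dimmer, ranged from -0.31 (limma p = 0.0612) to -0.73 (limma p = 7.45e-05). Leaving out 1 tumour at a time moved the collagen count from 1 (without tumour 4, 13 or 15) to 6 (without tumour 18) and the matrix count from 1 (without tumour 4, 6, 8, 15, 20 or 21) to 5 (without tumour 9). In the spiked tumours alone both counts were 0. All 10 high tumours lay below the low median of COL12A1. The gelatinase MMP2 was lower by 0.89 ± 0.42 (limma p = 0.0473), and MMP9 was at -1.03 ± 0.81 (limma p = 0.222).

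Macrophage and dendritic cell markers were lower in 24 of 28 genes, with a median of -0.21, and 4 were lower at p under 0.05. Leaving out 1 tumour at a time gave between 2 of them (without tumour 5, 9, 14 or 19) and 8 (without tumour 15), and the unspiked tumours alone gave 1. The spiked tumours alone gave 3, but there the median was -0.070 and 12 of the 28 genes had a positive difference. CSF1R, the receptor that keeps macrophages alive, ran from 6.48 through 7.76 to 8.54 in the high and from 7.08 through 8.28 to 9.10 in the low group. Its difference was -0.69 ± 0.26 (limma p = 0.0150). MRC1, the mannose receptor, was at -0.92 ± 0.35, and STAB1, a scavenger receptor outside the list, at -0.94 ± 0.25. LYVE1, found on lymphatic endothelium and on some macrophages, was lower by 1.14 ± 0.39 (limma p = 0.00880) and was the only one of 24 endothelial genes at that limit. The means of the macrophage list overlapped widely, from 6.14 to 8.61 in the high and from 6.72 to 8.11 in the low group. Their part in the differences of the fibroblast and matrix genes was not tested.

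Lymphocyte markers were read from 1 probe set per gene. None of 35 T and NK cell genes and none of 14 B and plasma cell genes was at p under 0.05 in the limma fit. GZMB and GZMA, proteases of cytotoxic cells, were at 0.70 ± 0.34 and 0.49 ± 0.24 (limma p = 0.0539 and 0.0546), and the other GZMB probe set was at 0.87 (limma p = 0.0273). IL15, a cytokine that sustains those cells and that is in no list, was at 0.98 ± 0.25 (limma adjusted p = 0.486). It ran from 5.17 through 6.10 to 7.46 in the high and from 4.89 through 5.25 to 6.04 in the low group, and 9 of 10 high tumours lay above the low median. Neither the 35 interferon-stimulated nor the 24 MHC genes had a member at p under 0.05. IDO1 and CXCL10, both induced by interferon, had large but scattered differences of 1.09 ± 0.53 and 0.86 ± 0.89, with the highest IDO1 level in tumour 15 and the highest CXCL10 level in tumour 4. In the spiked tumours alone the CXCL10 difference was -0.00113.

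The keratinocyte list had a median of 0.49 with 0 of 17 genes at p under 0.05. DSG3, a desmosomal cadherin of squamous cells, illustrates it, at 9.01 in tumour 15, 8.52 in tumour 4 and at most 3.94 in the other ranked tumours. Its difference of 1.19 was -0.059 in the spiked tumours alone. Neutrophil and inflammation genes had a median of 0.20 and none at p under 0.05, and the high mean of 8.27 in tumour 15 compares with at most 6.01 in the other high tumours. PTGS2, the inducible cyclooxygenase, was at 1.07 ± 0.60 (limma p = 0.0903). Smooth muscle and nerve sheath lists each had 1 gene higher, ABCC9, a potassium channel subunit of mural cells, at 0.49 ± 0.22 and SOX2, a transcription factor of progenitors, at 0.78 ± 0.36. S100B, the classical nerve sheath marker, was at -0.48 ± 0.85. None of the 24 skeletal muscle, 15 adipocyte or 9 red cell and platelet genes reached p under 0.05.

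Of 21 cholesterol and lipid synthesis genes, 3 were higher at p under 0.05 and the median was 0.26. They were SQLE, squalene epoxidase, at 1.30 ± 0.52, CYP51A1, lanosterol demethylase, at 0.71 ± 0.29, and LSS, lanosterol synthase, at 0.41 ± 0.15, all enzymes of the sterol pathway. Of 38 glycolysis and hypoxia genes 4 were higher and 1 lower, among them the oxygen sensors EGLN1 at 0.63 ± 0.21 and EGLN3 at 0.67 ± 0.31. EGLN3 was at -0.052 and the glucose transporter SLC2A1, at 0.70 ± 0.48 in all tumours, at -0.043 in the spiked tumours alone. None of 33 oxidative phosphorylation and none of 25 ribosomal protein genes was at p under 0.05, and of 27 genes of MYC and ribosome biogenesis only NPM1, a nucleolar chaperone, was (0.52 ± 0.22). Among 19 p53 targets, PLK3, a stress kinase, was higher by 0.57 ± 0.23 and GADD45B, a stress sensor, lower by 0.68 ± 0.28. The growth factor list had 1 of 49 genes lower, GAS6, a ligand of TAM receptors, at -0.78 ± 0.28.

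The arrays after treatment were not used for the ranking and show what of the split was present in a second sample of each tumour. TOP2A itself ran from 3.56 through 5.24 to 7.60 in the tumours ranked high and from 3.42 through 3.86 to 6.94 in those ranked low. The difference was 0.86 ± 0.54 (limma p = 0.126), against 1.74 before. It was lower after treatment than before in 9 of 10 high and in 9 of 10 low tumours, with tumours 15 and 13 as the exceptions. Over the array, limma gave 0 probe sets at an adjusted and 1531 at an unadjusted p under 0.05, and 280 genes (1.85%) were higher and 242 (1.6%) lower at the unadjusted limit. The 3′ to 5′ contrast after treatment was 1.63 in the tumours ranked high and 1.24 in those ranked low (permutation p = 0.110). With that contrast in the fit, limma gave 0 probe sets at an adjusted and 1552 at an unadjusted p under 0.05, and the median difference was 0.13 over the mitosis and 0.038 over the DNA replication genes, against 0.23 and 0.14 without it.

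After treatment 0 of 61 mitosis genes were at p under 0.05 in either direction, and the median difference was 0.23 with 54 of 61 above 0, where 56.0% of all genes were above and 44.0% below. Without tumour 13 there were 6, with a median of 0.35, and without tumour 17 the median was 0.11. CDK1 then ran from 3.63 through 4.79 to 7.90 in the tumours ranked high and from 3.68 through 4.16 to 7.21 in those ranked low, and the groups overlapped over nearly their whole range (0.75 ± 0.51, limma p = 0.156). TK1 had medians of 5.61 and 5.33 and CCNE2 of 6.12 and 5.91. The signed difference, high minus low, fell after treatment in 24 of 61 mitosis genes at p under 0.05 and rose in 1. Among all genes it fell in 323 (2.14%) and rose in 502 (3.32%). For a gene lower in the high group before treatment, a further fall is a wider gap, so these 2 counts do not separate narrower from wider gaps. Over the array, 0 probe sets passed at an adjusted and 2377 at an unadjusted p. The count of 24 was 11 without tumour 13 or 19, 12 without tumour 4, 13 without tumour 20, 14 without tumour 2 or 5 and 42 without tumour 15, and 6 with the 3′ to 5′ contrast in the fit. In the spiked tumours it was 28 and in the unspiked 1. Since the groups were set by the level before treatment, a narrower gap in genes that go with TOP2A also follows from the ranking, and these cannot be told apart here.

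**Figure D5:**
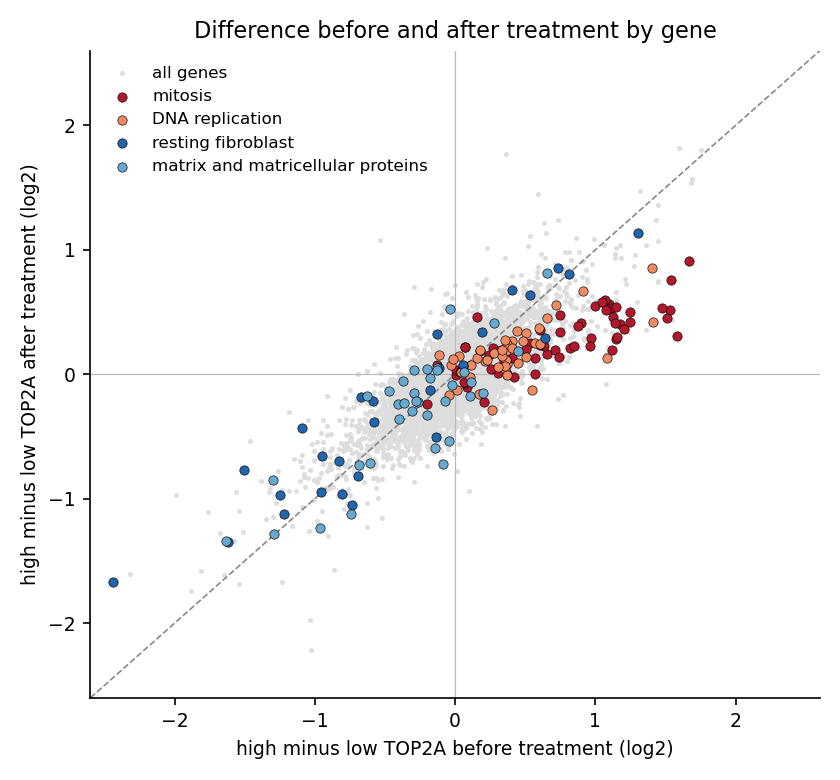
Difference between high and low TOP2A tumours for each gene before (horizontal axis, log2) and after treatment (vertical axis, log2), with all genes in grey, 4 lists in colour and a dashed line where both are equal. Mitosis genes in red reach 1.67 before treatment and 6 of the 61 lie above the dashed line, while resting fibroblast genes in dark blue spread along it down to CLEC3B at -2.44 and -1.67.

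The resting fibroblast median was -0.39 after treatment with 3 of 27 genes lower at p under 0.05, and 17 of the 27 had a smaller absolute difference than before, against 52 of 61 mitosis genes and 7558 of all 15114 genes. The count of 3 was 7 without tumour 9 or 13, 6 without tumour 12 or 14 and 5 without tumour 1. Spiked tumours alone gave 0 such genes and unspiked ones 5. The median was -0.19 without tumour 11 and -0.21 in the spiked tumours. CLEC3B was at -1.67 ± 0.97 and C3 at -1.35 ± 0.68, where 9 of 10 tumours ranked high again lay below the low median of C3. VCAN ran from 7.03 through 9.54 to 10.5 against 9.38 through 10.4 to 11.5, a difference of -1.23 ± 0.41 (limma p = 0.00641). MMP9, a gelatinase of macrophages and neutrophils, had the lowest p of the genes named here after treatment. It ran from 5.03 through 6.0 to 6.59 in the tumours ranked high and from 5.75 through 7.85 to 11.7 in those ranked low, so that all 10 of the former lay below the median of the latter. The difference was -2.21 ± 0.51 (limma p = 0.000323, adjusted p = 0.988). The change in MMP9 between the arrays did not differ at that limit (limma p = 0.0593).

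The groups hold the same tumours at both times, so the p-values of a gene before and after treatment are not independent. A gene that differed between these tumours by chance before treatment may differ again after it. At both times and in the same direction, 43 genes (0.285%) were higher and 60 (0.397%) lower at p under 0.05. Of the mitosis list 0 and of DNA replication 1 belonged to them. That 1 was MCM5, at 0.67 ± 0.24 after treatment (limma p = 0.0122) with medians of 8.74 and 8.20. CENPM, a centromere protein outside the lists, was at 0.48 ± 0.18 and then 0.44 ± 0.16. IL15 stayed at 0.88 ± 0.27 (limma p = 0.00406), with 9 of 10 tumours ranked high above the low median both times, and LSS at 0.34 ± 0.16.

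On the low side were COL12A1 at -0.86 ± 0.31, COL14A1 at -0.71 ± 0.31, VCAN and LYVE1 at -0.94 ± 0.38 after treatment. CPNE8, a copine that binds membranes in response to calcium, was at -1.54 ± 0.52 before and -1.68 ± 0.54 after treatment, although tumour 4 at 3.17 stood apart from the next high tumour at 6.50. TXNIP, an inhibitor of thioredoxin and of glucose uptake, was lower by 0.83 ± 0.23 and then by 0.81 ± 0.35, and all 10 high tumours lay below its low median at both times. The same held for PPM1A, at -0.36 ± 0.093 and -0.30 ± 0.11. Its other probe sets were at -0.026, -0.22 and -0.38 before treatment (limma p = 0.877, 0.335 and 0.0450), so its result depended on the probe set. MEDAG, a gene of fat cell development, was at -1.09 ± 0.29 and -0.75 ± 0.30, and ARRB1 at -0.50 ± 0.14 and -0.36 ± 0.17. CFI, a protease that inactivates complement C3b, was lower before treatment by 1.77 ± 0.50 and was at -1.10 ± 0.54 after it (limma p = 0.0522).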

How the data were processed

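The data are 42 arrays of 21 tumours. RMA and Affymetrix Expression Console were the software, per the submitters' processing notes. The deposited values are log2 levels, running from 2.13 to 14.6 with array medians between 5.20 and 5.31. RMA summarises each probe set on its own scale, so levels of different genes were not compared with each other. The exceptions are the markers set against the array median and the filter at the median level, which are rough for that reason. The number of arrays limits the precision. Of 43035 rows, 111 controls were left out. Names came from the platform annotation, with 29254 of the remaining 42924 probe sets under 1 symbol, 439 under several and 13231 under none. Probe sets ending in _s_at or _x_at can bind related transcripts. For each gene the probe set with the highest mean over all arrays was used.

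High and low tumours were compared with limma 3.58.1 (R 4.3.3), moderated by eBayes, two-sided, with Benjamini-Hochberg adjustment over all non-control probe sets. The change between arrays of 1 tumour and the slope on the TOP2A level were fitted likewise. The code that starts each title pairs the arrays of a tumour. After the group means were removed, 21 of 21 arrays before treatment correlated best with the array after treatment of their own tumour. The reverse direction was not tested. The lowest correlation within a tumour was 0.44 and the highest between different tumours 0.66. Technical measures used 100000 permutations. Labelling batches were read from the poly-A spike-in level, with the border at 5.29, and the labels do not give them. Counts, tables and figures were made in Python 3.11.15 with pandas 2.3.3, SciPy 1.17.1 and NumPy 2.4.6, and drawn with Matplotlib 3.10.9. The fit was tested on simulated data.

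The members and the 31 gene lists were chosen with earlier results of these data known. In each list, the genes named are the 2 whose p was lowest and the 2 whose absolute difference was greatest, together with a fixed set of 20 cell cycle genes, of which 17 were measured and the other 3 were not analysed here. Not every gene under that rule is printed or reported here. MCM5, IL15, PPM1A, ARRB1, TMEM176B, LOC485338, DEPDC1, SHCBP1, STAB1, MEDAG, TXNIP, CENPM, PSAT1, CPNE8, CFI, SFRP1, MFAP5, PI16 and DPT were chosen after their values were seen. The alternatives without tumours of a contrast above 2, and those of the slope fit, were added after seeing the data.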

Additional observations from a re-analysis of the deposited data

Results flagged for a closer look

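For 80 of the genes named, each of the 320 groups of 10 tumours was searched for a tumour far from the nearest other, by Dixon's criterion. It marked 27 values, where chance marks about 1 group in 20. Tumours 13, 17 and 4 account for many of them.

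In the low group before treatment, tumour 13 stood highest for FOXM1 at 5.50, PTGS2 at 6.31, ABCC9 at 6.54 and CENPM at 7.71, and lowest for EFEMP1 at 10.4. After treatment it stood highest for AURKA at 6.76, MYBL2 at 7.45, SQLE at 8.55 and ABCC9 at 6.72, and lowest for CLEC3B at 9.31. Tumour 17 of the high group was far above the others for EZH2 at 8.78 and ANGPT2, a vascular growth factor, at 8.57 before treatment, and for HELLS at 7.85 after it. Tumour 4 of the high group was far below the others for CCDC80 at 5.98 and CPNE8 at 3.17 before treatment and for CCDC80 at 7.29 after it, and far above for EGLN3 at 6.97 after it.

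Other single values before treatment were E2F1 at 5.37 in tumour 10, PLK3 at 7.68 in tumour 15, CCDC80 at 10.8 in tumour 1 and PSAT1 at 6.30 in tumour 3. After treatment they were CCND1 at 11.6 in tumour 11 and 7.30 in tumour 6, MCM2 at 5.99 in tumour 5, BARD1 at 5.69 in tumour 3, IDO1 at 7.05 in tumour 21 and PSAT1 at 5.31 in tumour 9.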

How the results depend on the processing

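High and low tumours could not be paired because the groups hold different tumours, while the change was taken within each tumour. The comparison before treatment gave 0 probe sets at an adjusted p under 0.05 with every tumour left out in turn. It gave 11 once the 3′ to 5′ contrast entered the fit, 11 with ranks 1 to 7 against 15 to 21, 1 with the ranking by the other TOP2A probe set and 185 on the continuous TOP2A level. Of the mitosis list 4, 4, 1 and 34 were called in these 4 fits, and of DNA replication 1 with the outer ranks and 10 on the continuous level. At an unadjusted p the 1434 became 780 above the median level and 551 with 1 probe set per gene, where fewer are tested, 2859 with the outer ranks, 3438 on the continuous level and 4850 with the other TOP2A probe set. Leaving out 1 tumour gave 1176 to 1976. After treatment the 1531 became 767, 500, 978 in the spiked tumours and 2576 on the continuous level (1102 to 2262 without 1 tumour), and for the change the 2377 became 1175 and 807 (1813 to 3152).

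With only probe sets above the median level, 23 mitosis and 11 replication genes were left at p under 0.05. That filter kept 21460 probe sets, of which 331 were higher and 449 lower at that limit. Members below the median level were not tested there, so these counts cannot be read against the full lists of 61 and 47. Replication had 28 on the continuous level and 28 with the other TOP2A probe set. Replication in the spiked and unspiked tumours gave 6 and 9, and 10 without the 2 tumours of high contrast, and resting fibroblast in the spiked tumours 2. Without 1 tumour the mitosis count was 42 to 47, replication 10 to 28 and resting fibroblast 3 to 8. For the slope on TOP2A, the 185 became 45 in spiked and 41 in unspiked tumours and 746 on the other TOP2A probe set. In those fits mitosis had 11 and 15, and replication 2, 3 and, on the other probe set, 19. Without 1 tumour mitosis had 31 to 37 and replication 7 to 12. The causes were not tested.

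Of the 80 genes, 6 turned sign somewhere, CCND1 (0.58 in the spiked tumours, 0.13 with array weights), BARD1 (-0.062 with the other TOP2A probe set) and, in the spiked tumours, EGLN3 (-0.052), SLC2A1 (-0.043), DSG3 (-0.059) and CXCL10 (-0.00113). On the continuous TOP2A level 25 of the 80 passed the adjusted threshold, where 87 of all genes (0.576%) rose and 3 (0.0198%) fell. Many of the 80 were named for a low p or a large difference in these arrays, so a high share follows from that choice.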
